A study of Bos taurus with 20 samples.

Results

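The heat shock proteins and chaperones of bovine endometrium, the inner lining of the uterus, were followed in 10 cows sampled early and late after calving. Members were all noncontrol probes whose gene name on the array began with HSPA, HSPB, HSPD, HSPE, HSPH, HSP90, DNAJ or PDIA, or was CALR, CANX, HYOU1, SDF2L1, MANF or CRELD2, in either letter case, since 7 probes were named canx in lower case. This gave 191 of 43653 probes and 78 of 25382 gene names. By the compartment where the protein works, 45 genes belong to the cytosol and nucleus, 23 to the endoplasmic reticulum and 8 to mitochondria, and 2 (DNAJC4 and DNAJC22) were not assigned. A gene was tested if 8 or more of the 20 arrays showed its probe well above background. This held for 75 member genes, and DNAJB7, DNAJC5B and HSPB3 did not pass.

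Chaperones bind unfolded proteins and help them fold. HSP70 proteins (the HSPA genes) do so in cycles of ATP use that J proteins (the DNAJ genes) start and nucleotide exchange factors end, and HSP90 proteins take over clients such as steroid hormone receptors. In the cytosol, heat and other protein damage raise HSPA1A, DNAJB1 and HSPH1 through heat shock factors, whereas HSPA8 and HSP90AB1 are the constitutive forms. In the endoplasmic reticulum, where the uterine glands fold what they secrete, HSPA5, HSP90B1, the disulfide isomerases (PDIA genes) and the lectins CALR and CANX are raised together by the unfolded protein response. HSPD1 and HSPE1 form the folding chamber of mitochondria.

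Each of the 10 female cows (Bos taurus) gave a biopsy early, on day 42 to 86 after parturition (mean 60.1 ± 13.3 days, SD, n = 10), and another late, on day 343 to 436 (mean 388.9 ± 27.5 days, SD, n = 10). Both were taken with forceps on day 7 after oestrus from the uterine horn that lay ipsilateral to the corpus luteum, and no treatment, genotype or age is given in the labels. Total RNA was hybridised to 20 Agilent 4x44K arrays with 1 colour, and a level is the log2 signal above or below the 75th percentile of its array, so that 0 is the level of that percentile. Levels of different probes are not compared with each other. A biopsy holds many cell types, and fewer cells of a type and less RNA per cell cannot be told apart. Epithelial, fibroblast, smooth muscle and endothelial marker genes were measured in 9, 10, 9 and 9 of 10 listed genes.

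Each array had 71.8% to 80.2% of its noncontrol spots well above background, and 70 of the 75 member genes were so on all 20 arrays. The arrays lay on 5 slides, of which only slide 3 held both periods (the early biopsies of cows 9 and 10 and the late ones of cows 1 and 2). The early array of cow 4, taken on day 49, stood apart from the rest: 20.7% of all 19424 genes had their highest level of the 20 arrays there, and 4107 their lowest. The late array of cow 9 stood apart in how signal was spread along transcripts, as described with the probes below. Changes are therefore given with all 10 cows and, where leaving out cow 4 or cow 9 moved a printed change of a gene by over 1.5 times, without that cow.

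No chaperone gene passed the test between periods. In the paired limma fit (adjusted p under 0.05), 0 of 75 member genes were called, against 255 of 19424 genes, or 1.31% (0.541% higher and 0.772% lower late), over the whole array. An unadjusted p under 0.05 was reached by 12 members, of which 9 were higher and 3 lower late, against 22.5% of all genes (12.4% higher and 10.2% lower). The smallest adjusted p of a member was 0.0805, for DNAJC12. The early and late levels of every tested member overlapped, and over the array 0.124% of genes had groups that did not overlap. The 95% interval of the change lay within 1.5-fold in either direction for 60 of the 75 genes and within 2-fold for 71. The median change was 0.02 for cytosolic and nuclear members, 0.06 for endoplasmic reticulum members and 0.07 for mitochondrial members, on the log2 scale, against 0.02 for all genes. Without cow 4 these medians were 0.04, 0.10 and 0.07, and 16 members had an unadjusted p under 0.05, none of them past the adjusted threshold. Without cow 9 the medians were 0.03, 0.03 and 0.0027. The arrays of slide 3 alone gave medians of -0.05, 0.10 and 0.16 in an unpaired fit, and slide as a fixed block gave 0.29, 0.63 and 0.18 with no interval within 1.5-fold. Of the 20 arrays, 16 lay on slides that held 1 period only.

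**Figure D1:**
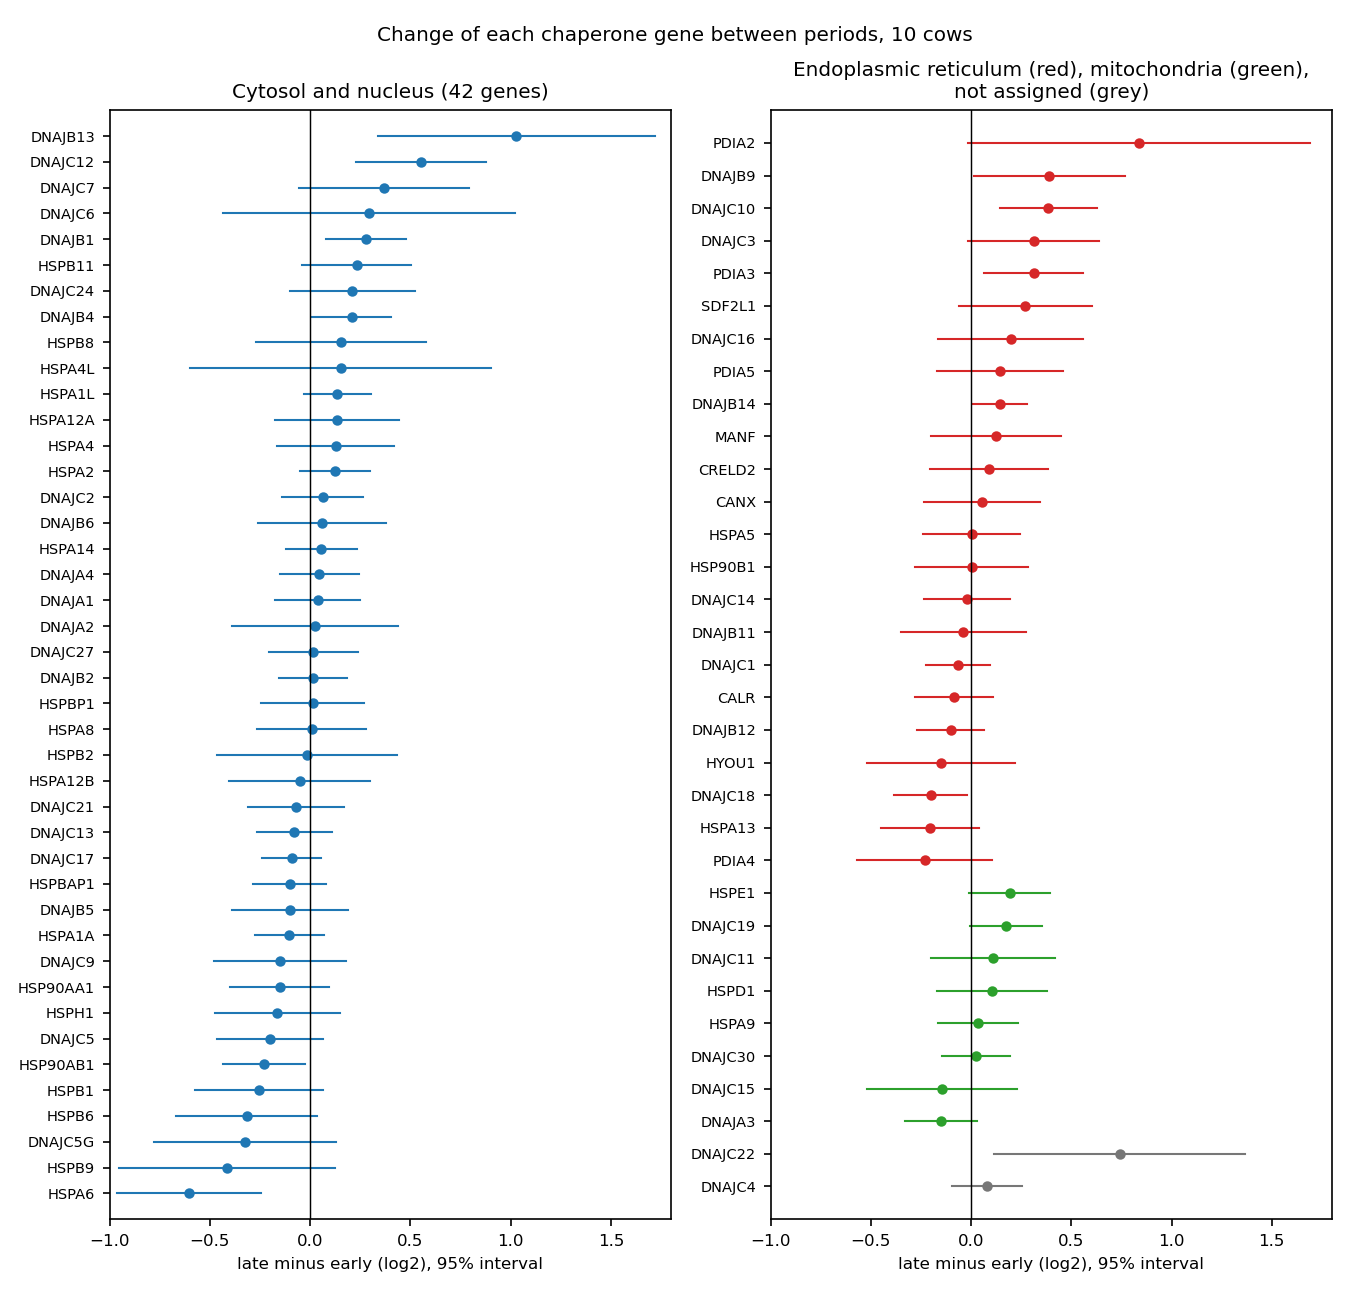
Late minus early change (log2, x axis) of each of the 75 tested chaperone genes with its 95% interval from the paired fit over 10 cows, in the cytosol and nucleus at left and in the endoplasmic reticulum, mitochondria and neither at right. Changes run from -0.61 (HSPA6) to 1.03 (DNAJB13), and most intervals cross 0.

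The main cytosolic chaperones did not pass the test. HSPA8, the constitutive HSP70, ranged early from 4.70 to 6.15 (median 5.20) and late from 4.88 to 5.47 (median 5.25). Its change was 0.01 (95% interval -0.26 to 0.28, adjusted p 0.976), and 0.11 without cow 4 and -0.01 without cow 9. HSP90AB1, the constitutive HSP90, had early levels between 6.05 and 6.76 (median 6.33) and late levels between 6.0 and 6.27 (median 6.20). It was lower late in 9 of 10 cows, with a mean change of -0.23 (SE 0.09, adjusted p 0.183). All 6 of its probes gave a negative change, though some of them overlap and are not independent readings. The highest late level of HSP90AB1 lay below its early median, but the groups overlapped. HSP90AA1, the inducible HSP90, changed by -0.15 (interval -0.40 to 0.10), and without cow 4 by -0.05. HSPH1, the exchange factor that works with HSP70, ranged from 2.84 to 4.42 early and from 2.88 to 3.39 late, with 5 cows higher and 5 lower. Its change was -0.16, and -0.03 without cow 4. HSPB1, the small heat shock protein that holds unfolded proteins and binds the cytoskeleton, changed by -0.26 (interval -0.57 to 0.06, adjusted p 0.313) and by -0.14 without cow 4.

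Neither of the heat-induced HSP70 genes passed the test. HSPA1A is the classic heat-induced HSP70. At its probe near the transcript end its level varied little, from 3.30 to 3.73 early (median 3.45) and from 3.15 to 3.73 late (median 3.39), with a change of -0.10 (interval -0.28 to 0.07). HSPA1A has a near-identical neighbour, HSPA1B, which was not analysed here as a gene of its own, so signal at these probes may come from either. HSPA6, another heat-induced HSP70 in humans, was dim: 10 early but only 6 late arrays were well above background. Its early levels ranged from -6.76 to -5.41 and its late levels from -7.40 to -5.72, and it was lower late in 9 of 10 cows, with a mean change of -0.61 (fold 0.657, 95% interval 0.513 to 0.843, adjusted p 0.0821). HSPA4L, an HSP110 relative of HSPH1, was also dim and had a change of 0.15 with a wide interval of -0.60 to 0.90, which turned to -0.10 without cow 4 and was 0.04 without cow 9.

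None of the J proteins of the cytosol passed the test either. DNAJB1, which delivers unfolded proteins to HSP70 and is itself heat-induced, ranged from 0.97 to 2.04 early (median 1.71) and from 1.75 to 2.12 late (median 1.93). It was higher late in 8 of 10 cows, by 0.28 (SE 0.09, adjusted p 0.117). This value holds for its probe near the transcript end only, as the other probe went the opposite way (below). DNAJB4, a close relative of DNAJB1, was 0.21 higher (adjusted p 0.206), and its late level in cow 9, 0.22, lay above all other late levels, which reached -0.50. DNAJC12, a co-chaperone that in humans serves the aromatic amino acid hydroxylases, had the largest spread of all tested members over the 20 arrays (SD 1.25).

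DNAJC12 separated cows more than periods. At its representative probe the early levels of cows 2, 8 and 9 were 3.06, 2.47 and 1.52, and their late levels were 3.35, 3.28 and 3.06. The other 7 cows lay between -0.37 and 0.36 early and between 0.09 and 1.03 late. No array of these 7 cows reached the lowest of the 6 arrays of cows 2, 8 and 9. Late levels were higher than early ones in 9 of 10 cows, by 0.55 on average (fold 1.47, 95% interval 1.17 to 1.84, adjusted p 0.0805). The increase was 1.54 in cow 9 and 1.16 in cow 10, and the change was -0.04 in cow 5. Its other probe, 252 bases closer to the transcript start, gave a change of 0.57 and the same 3 high cows. The probe nearer the start, on chr28:23453486-23460698 (minus strand, Btau_3.1, spanning a splice junction), is shown because it reads the same difference between cows at another place of the transcript:
DNAJC12, position 596: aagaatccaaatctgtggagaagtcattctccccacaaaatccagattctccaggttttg

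**Figure D2:**
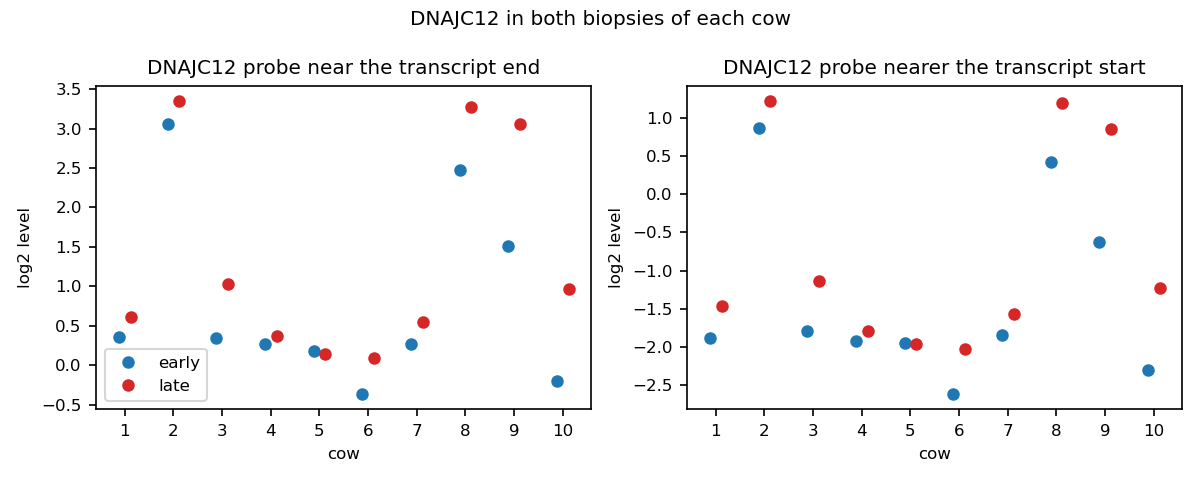
DNAJC12 level (log2, relative to the array's 75th percentile) in the early (blue) and late (red) biopsy of cows 1 to 10, at the probe near the transcript end (left) and at the probe nearer the start (right). Cows 2, 8 and 9 are above all other arrays in both periods and at both probes.

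DNAJC6 and DNAJB13 followed DNAJC12 in spread. DNAJC6, the auxilin that uncoats clathrin vesicles with HSPA8, ranged over the arrays from -4.95 to -0.10, both late, and changed by 0.29 (interval -0.44 to 1.02), by 0.53 without cow 4 and by 0.03 without cow 9. DNAJB13, a J protein of the radial spokes of cilia and sperm tails, ranged from -3.85 to 0.54 early (median -1.59) and from -2.60 to 0.34 late (median -0.30). Its change of 1.03 (fold 2.04, interval 1.26 to 3.29, adjusted p 0.106) was the largest of the members, and 7 of 10 cows were higher late. Genes of motile cilia changed in the same direction: 9 of 9 measured cilia markers had a change above 0 (median 0.50), none called. Their summed level ranged from -2.62 to 1.02 early and from -1.59 to 1.07 late, and was higher late in 6 of 10 cows. The part of ciliated cells in the DNAJB13 value was not tested. HSPB11, known as the ciliary transport protein IFT25 in the RefSeq names, changed by 0.23 (interval -0.04 to 0.50) and by 0.13 without cow 4. HSPB6, a small heat shock protein of muscle, changed by -0.32 (interval -0.67 to 0.04) and by -0.21 without cow 9, and the 9 measured smooth muscle markers had a median change of 0.01. The least variable members were DNAJC30, DNAJC1 and DNAJB12, with SDs of 0.140, 0.146 and 0.157 over the 20 arrays.

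In the endoplasmic reticulum neither HSPA5 nor HSP90B1 passed the test. Their changes lay near 0 with all 10 cows, and in each gene the sign turned in 4 of the omissions of 1 cow. HSPA5 (BiP), the HSP70 of this compartment, ranged from 4.84 to 6.15 early (median 5.21) and from 5.02 to 5.36 late (median 5.28), with a change of 0.0037 (interval -0.24 to 0.25). HSP90B1 (GRP94), which folds integrins and secreted growth factors, ranged from 4.60 to 6.06 early and from 4.60 to 5.27 late, with a change of 0.0022 (interval -0.28 to 0.28). In both genes the highest early level was that of cow 4, and without it the highest early level was 5.33 and 5.03. The changes without cow 4 were 0.10 for HSPA5 and 0.11 for HSP90B1, and without cow 9 they were -0.02 and 0.03. CALR and CANX, the lectins that hold newly made glycoproteins, changed by -0.08 and 0.06, with intervals of -0.28 to 0.11 and -0.23 to 0.35. Without cow 4 the change of CALR was -0.03, and that of CANX was 4.04e-05 without cow 9 and -0.05 without cow 10. PDIA4, a disulfide isomerase bound to HSPA5, ranged from 2.55 to 4.50 early and from 2.38 to 3.12 late, and changed by -0.23 (interval -0.57 to 0.11), but by -0.08 without cow 4. SDF2L1, a partner of HSPA5 and of DNAJB11, was 0.27 higher late (interval -0.06 to 0.60), with 1.31 in cow 10 and a mean of 0.15 without that cow. HSPA13, an HSP70-like protein of microsomes, changed by -0.20 (interval -0.45 to 0.04) and by -0.12 without cow 4.

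DNAJC10 gave a positive change at each of its probes. DNAJC10 (ERdj5) reduces disulfide bonds of misfolded proteins so that they can leave the endoplasmic reticulum for degradation. Its early levels ran from 0.95 to 2.12 (median 1.48) and its late levels from 1.36 to 2.01 (median 1.84). It was higher late in 9 of 10 cows, by 0.39 (SE 0.11, fold 1.31, 95% interval 1.1 to 1.54, adjusted p 0.091), the exception being cow 4. The changes of its 6 probes, some of which overlap and are not independent readings, ran from 0.27 to 0.64. When each probe was tested on its own, the probe at transcript position 1340 rose by 0.64 (adjusted p 0.0435), higher late in 10 of 10 cows. It was the only one of 180 member probes called, against 1.12% of 33764 probes over the array, and 39 member probes (21.7%) had an unadjusted p under 0.05, against 23.8%. With cow as a random effect the gene itself was called (adjusted p 0.0470), in a fit that called 3.74% of all genes. The 60 bases of this probe lie on chr2:14206429-14210648 (minus strand, Btau_3.1), across a splice junction:
DNAJC10, position 1340: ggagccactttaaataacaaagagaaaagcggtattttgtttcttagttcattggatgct

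Other disulfide and J proteins of the compartment had smaller or less even differences. PDIA3 (ERp57), which forms disulfides in glycoproteins held by CALR and CANX, ranged from 1.90 to 2.85 early and from 2.44 to 3.11 late, 0.31 higher late in the mean (adjusted p 0.144, 7 of 10 cows). DNAJB9 (ERdj4), a target of the unfolded protein response that binds HSPA5, was 0.39 higher late in 9 of 10 cows (adjusted p 0.208). DNAJB14 and DNAJC18, J proteins of the endoplasmic reticulum membrane, changed by 0.14 (adjusted p 0.203) and by -0.20 (adjusted p 0.189). DNAJB12, another of this kind, changed by -0.10 (interval -0.27 to 0.07). PDIA2, an isomerase best known from the pancreas, was dim and ranged from -7.03 to -2.64 early and from -4.51 to -2.58 late. Its change was 0.84 (interval -0.01 to 1.69), and 0.47 without cow 4, while another of its probes gave -0.38.

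None of the 8 mitochondrial chaperones passed the test. HSPE1, the lid of the folding chamber, ranged from 4.18 to 5.0 early and from 4.42 to 4.97 late and was 0.19 higher late in 8 of 10 cows (interval -0.01 to 0.39, adjusted p 0.239). HSPD1, its wall, ranged from 3.87 to 4.65 early and from 3.82 to 4.59 late, with a change of 0.10 (interval -0.17 to 0.38). DNAJC19, a J protein of the import motor, was 0.17 higher (adjusted p 0.233). DNAJA3, the J protein of the mitochondrial HSP70, changed by -0.15 (adjusted p 0.294), and DNAJC15 and DNAJC11 changed by -0.15 and 0.11. Without cow 4 the change of DNAJC15 turned to 0.01, that of DNAJC11 was 0.03 and that of HSPD1 0.18, and without cow 9 those of DNAJC11 and HSPD1 were 0.02 and 0.03. DNAJC22, not assigned to a compartment, was dim, with a change of 0.74 (adjusted p 0.165, 9 of 10 cows). The change was 3.36 in cow 10, and the mean was 0.45 without that cow.

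**Figure D3:**
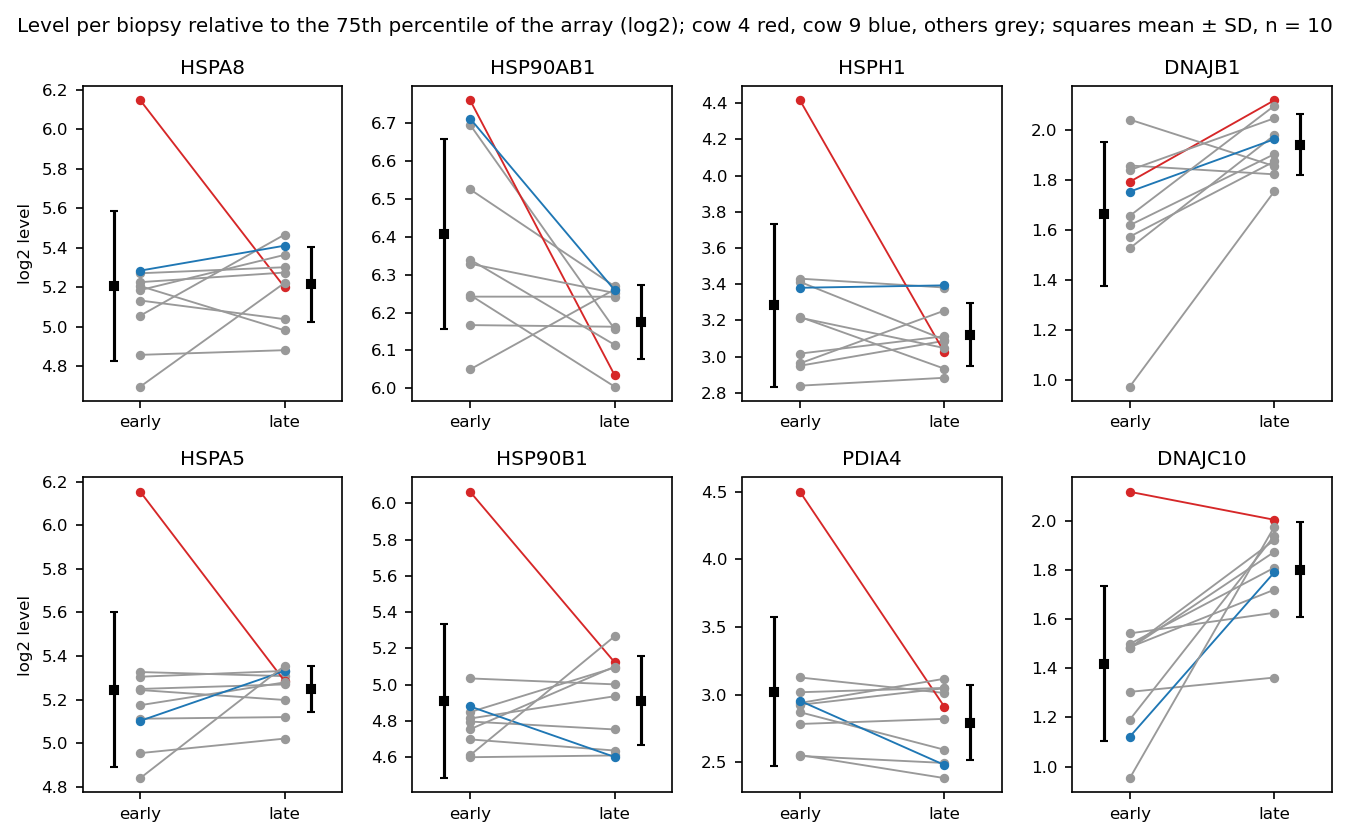
Level of 8 chaperone genes (log2, relative to the array's 75th percentile, y axis) in the early and late biopsy of each cow, joined by lines, with cow 4 in red, cow 9 in blue and squares for mean ± SD (n = 10). The early level of cow 4 is the highest of the 20 in each panel except DNAJB1, and it lies far above the others for HSPA8, HSPH1, HSPA5, HSP90B1 and PDIA4. The DNAJB1 panel shows its end-side probe. At the start-side probe, not drawn, early cow 4 was the highest at -0.94, and early cow 3 came next at -1.34.

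The early biopsy of cow 4 held the highest level of more chaperone genes than any other array. Of the 75 tested members, 35 (46.7%) had their highest level of the 20 arrays there, against 20.7% of all genes. The lowest level was there for 9 of the 75 members, against 4107 of all 19424 genes. The shares were 19 of 42 in the cytosol and nucleus, 12 of 23 in the endoplasmic reticulum and 4 of 8 in mitochondria. The median deviation of the members from each gene's 20-array median was 0.24, 0.53 and 0.36 in these compartments, against -0.0037 for all genes. The array was chosen for description after its values were seen and is 1 biopsy, so no test applies.

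In 15 members the level there exceeded the 20-array median by over 1 unit, and the matching share of all genes is not given here. In the endoplasmic reticulum PDIA4 exceeded its median by 1.58 and MANF, a secreted protein released on calcium loss, by 1.35. DNAJB11 (ERdj3), a soluble J protein of HSPA5, exceeded its median by 1.30, HYOU1, the exchange factor of HSPA5, by 1.29, and HSP90B1 by 1.23. CRELD2 and SDF2L1, targets of the unfolded protein response, exceeded theirs by 1.03 and 1.0. HSPA5 itself was at 6.15, whereas the next of the 19 other arrays was at 5.36. In the cytosol HSPH1 exceeded its median by 1.31, DNAJB5 by 1.25, DNAJA4 by 1.20, HSPB6 by 1.13, HSP90AA1 by 1.1, HSPB1 by 1.1 and DNAJC24 by 1.02. In mitochondria DNAJC15, a J protein of the inner membrane, exceeded it by 1.23. HSPA8 was 0.93 above its median. HSPA1A, at 3.41, deviated from its median by -0.02. DNAJB13, HSPA4L and PDIA2 were low there, with deviations of -1.15, -2.76 and -3.45. On the late array of cow 4 the median deviations were -0.03 in the cytosol and nucleus, 0.18 in the endoplasmic reticulum and 0.08 in mitochondria. HSPA5 was at 5.28 there, PDIA4 at 2.91 and HSPH1 at 3.02, while CRELD2 was at 2.85 and DNAJA4 at -1.39, the highest level of DNAJA4 apart from the early array.

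Marker genes of other cells also stood apart on this array. The median deviation of the 10 macrophage markers was 1.5, of the fibroblast markers 0.66, of the smooth muscle markers 1.34 and of the immediate early genes, which respond to handling of tissue, 0.84, each the highest of the 20 arrays. These lists were not uniform. Among immediate early genes FOS exceeded its median by 4.12, while JUN, NR4A2 and EGR2 deviated by -0.85, -0.43 and -0.11. Among smooth muscle markers ACTA2 exceeded its median by 1.89, while MYH11, LMOD1 and DES deviated by -0.67, -0.49 and -0.37. The T and NK cell markers were at -0.51, the lowest of the 20 arrays, and the cilia markers at -1.32. Among the T and NK cell markers, NKG7, CD2, CD3E and CD3G went the other way, with deviations of 1.70, 1.08, 0.43 and 0.13. The level of NKG7 was the highest of the 20 arrays. The partner genes of the cytosolic chaperones were at 0.49 and those of the endoplasmic reticulum at 0.29, again the highest of the 20. Some partners went the other way and had their lowest level of the 20 arrays there. These were FKBP5 (-2.54), BAG3 (-1.01) and HSBP1 (-0.64) in the cytosol, and SYVN1 (-1.09) and ERP29 (-0.86) in the endoplasmic reticulum. The part of any of these in the chaperone levels was not tested.

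**Figure D4:**
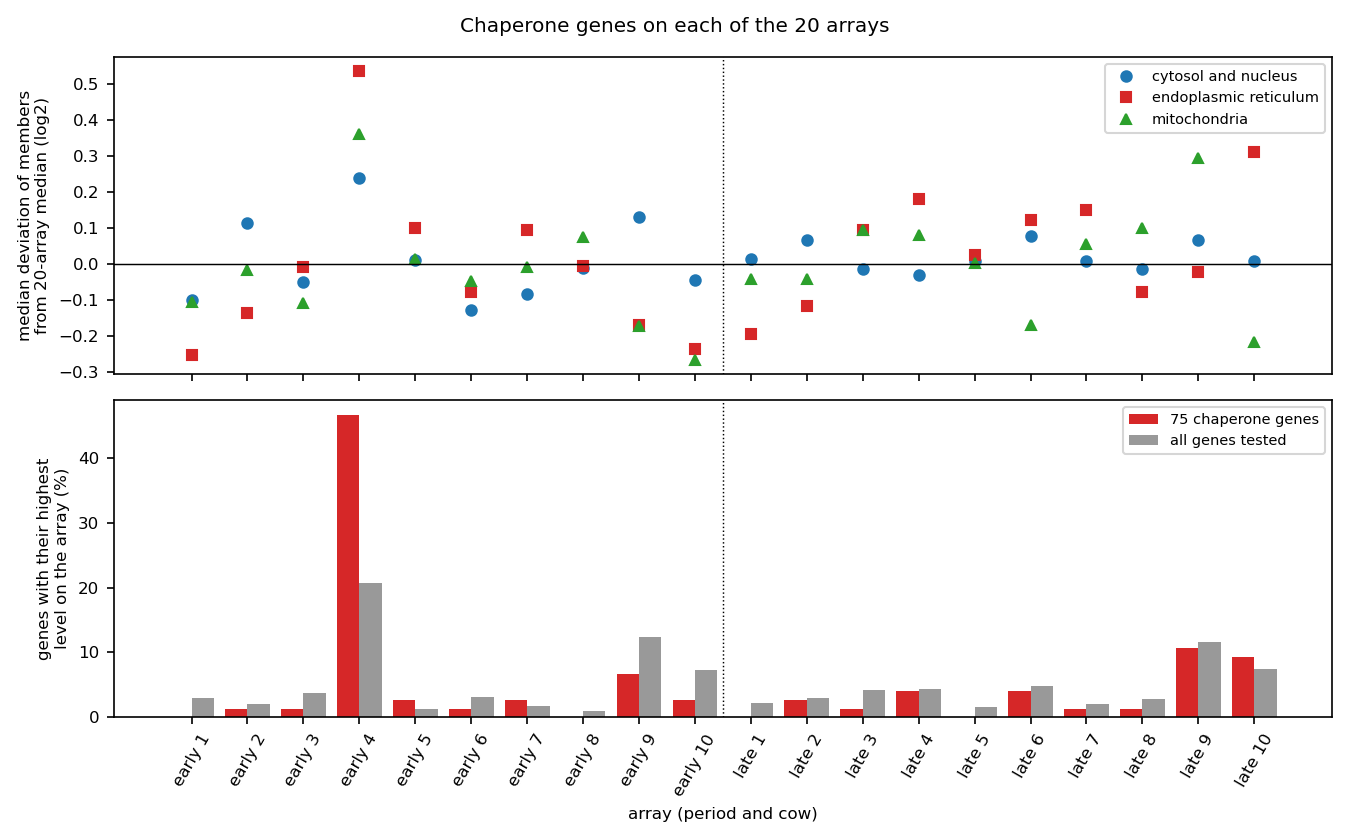
Upper panel, the median deviation of the chaperone genes of each compartment from their 20-array medians (log2) on each array, early biopsies left of the dotted line. Lower panel, the share of the 75 chaperone genes and of all 19424 genes whose highest level fell on that array, 46.7% and 20.7% on the early array of cow 4.

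Cow 10 went the other way in the endoplasmic reticulum. The median change of the endoplasmic reticulum members from early to late was 0.66 in this cow, against -0.34 in cow 4 and between -0.05 and 0.17 in the other 8 cows. The median deviation of these members was -0.24 on its early array, where early cow 1 was lower at -0.25, and 0.31 on its late array. Over all compartments its early array held the lowest level of 13 members, and the matching share of all genes is not given here. DNAJC10 was 1.02 and HSPA5 0.52 higher late than early in cow 10.

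Between cows, the central endoplasmic reticulum chaperones varied together in the early period, but with few cows behind it. HSPA5 and HSP90B1 correlated with Pearson's r 0.942 (permutation p 0.00314, adjusted over 20 values 0.0365) and Spearman's rho 0.685 (p 0.0348, adjusted 0.140) over the 10 early biopsies. HSPA5 and PDIA4 gave r 0.943 (p 0.00365, adjusted 0.0365) and rho 0.758 (p 0.0150, adjusted 0.1003). Without the 2 cows farthest from the median of HSPA5, r was 0.488 and 0.783. Without cow 4 alone it was 0.636 and 0.650, and neither passed the threshold (adjusted permutation p 0.216 for each), although r stayed positive. Both calls were also lost without cow 1, with r 0.946 and 0.938 (adjusted permutation p 0.0633 and 0.0667). The call for HSP90B1 was lost without cow 10, with r 0.950 (adjusted permutation p 0.0584). Late, r was 0.655 for HSPA5 with HSP90B1 (adjusted permutation p 0.140; rho 0.491) and 0.606 for HSPA5 with PDIA4 (adjusted 0.167; rho 0.285). The heat-induced cytosolic genes did not give a relation past the threshold: HSPA1A with DNAJB1 had r 0.0718 early and 0.631 late, HSPA1A with HSPH1 -0.129 and -0.563, and HSPA1A with HSPA5 -0.185 and -0.116. All p-values are two-sided, from 100000 permutations, and the slide each biopsy was run on is shared by up to 4 points.

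Several chaperones gave different answers along their own transcript. Of 48 members with more than 1 measured probe, 20 had a probe whose change was opposite in sign to that of the representative one, which was chosen for its highest mean. The matching share of all genes is not given here. In HSPA5, HSPA8, DNAJB2 and DNAJA2 the representative change lay near 0 (0.0037, 0.01, 0.02 and 0.02), where an opposite sign says little. HSPA5 is described as an example. From the start to the end of the transcript its 4 probes changed by -0.26, -0.18, -0.04 and 0.0037. Cow 4 weighs on these means. At the first probe its change was -1.32, against -0.51 to 0.32 in the other cows, and at the last probe it was -0.87. The 3 probes on the start side, at transcript positions 345, 1500 and 1991, lie on chr11:99546701-99546760, chr11:99544070-99544547 (across a splice junction) and chr11:99543579-99543638 (minus strand, Btau_3.1) and are shown as the places where these values were read:
HSPA5, position 345: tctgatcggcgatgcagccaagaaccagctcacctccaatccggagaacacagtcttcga
HSPA5, position 1500: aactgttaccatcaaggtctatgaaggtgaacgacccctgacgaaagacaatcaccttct
HSPA5, position 1991: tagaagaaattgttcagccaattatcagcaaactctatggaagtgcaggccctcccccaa

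HSPA8 followed the same course, from -0.25 at its start-side probe to 0.01 at the end-side one, and HSP90AA1 from -0.19 to -6.31e-05 with a lowest value of -0.39 between them. CALR gave -0.28, -0.37, -0.63, -0.22, -0.08 and -0.14 over its 6 probes. CANX stayed near 0 but went from -0.07 at its start-side probe to 0.09 at the end-side one (start minus end -0.16). The others of its 7 probes lay between these values. DNAJC10 was positive throughout, with a start minus end difference of -0.11. In DNAJB1 the sides went opposite ways in most cows. The start-side probe was lower late in 10 of 10 cows, with a mean change of -0.29 (adjusted p 0.0767 in the fit of each probe), while the end-side probe was higher in 8 of 10. The start-side probe, on chr7:9504147-9504206 (minus strand, Btau_3.1), reads:
DNAJB1, position 768: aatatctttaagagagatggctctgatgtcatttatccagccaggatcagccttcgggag

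HSPA1A differed by the array more than by the period. Its end-side probe stayed between 3.15 and 3.73 on all 20 arrays. Its start-side probe lay between -3.02 and -2.13 on 16 arrays, and at -3.94 in early cow 2, -4.31 in late cow 2, -3.97 in late cow 3 and -4.88 in late cow 9. The late minus early change at that probe was -1.84 in cow 3 and -2.09 in cow 9, against -0.62 to -0.07 in the other 8 cows, and -0.62 in the mean (adjusted p 0.119 in the fit of each probe). The pair of probes near position 870 gave the same 4 low arrays. These share a run of 29 identical bases, so they count as 1 place and not as independent readings. The probes at positions 439 and 870 lie on chr23:27313147-27313206 and chr23:27312716-27312775 (minus strand, Btau_3.1):
HSPA1A, position 439: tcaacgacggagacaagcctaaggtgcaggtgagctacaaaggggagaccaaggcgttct
HSPA1A, position 870: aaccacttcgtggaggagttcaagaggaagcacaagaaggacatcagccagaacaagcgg
HSPA1A, position 876: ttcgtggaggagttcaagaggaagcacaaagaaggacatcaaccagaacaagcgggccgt

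The same arrays stood out over all genes. For 5297 genes with probes at least 200 bases apart on a transcript, the median level at the start side minus that at the end side was -3.62 on the late array of cow 9, -3.46 and -3.45 on the early and late arrays of cow 2 and -3.29 on the late array of cow 3. These 4 arrays were the lowest of the 20 by this measure, and the same 4 were the lowest at the HSPA1A start-side probe. Between periods, the start-side minus end-side change had a median of -0.10 over these genes, below 0 in 73.9% of them and in 9 of 10 cows (mean of cow medians -0.10, exact two-sided sign-flip p 0.00391). Over the 36 members with such probes the median was -0.12, below 0 in 25 genes and in 10 of 10 cows. Without cow 9 the mean over all genes was -0.07 (exact p 0.00781). These p-values treat the cows as independent, while 16 of the 20 arrays lay on slides that held 1 period only. Slide and period can therefore not be told apart here. The measure was also chosen after the data were seen. RNA quality values were not used here, and their part in this difference was not tested.

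**Figure D5:**
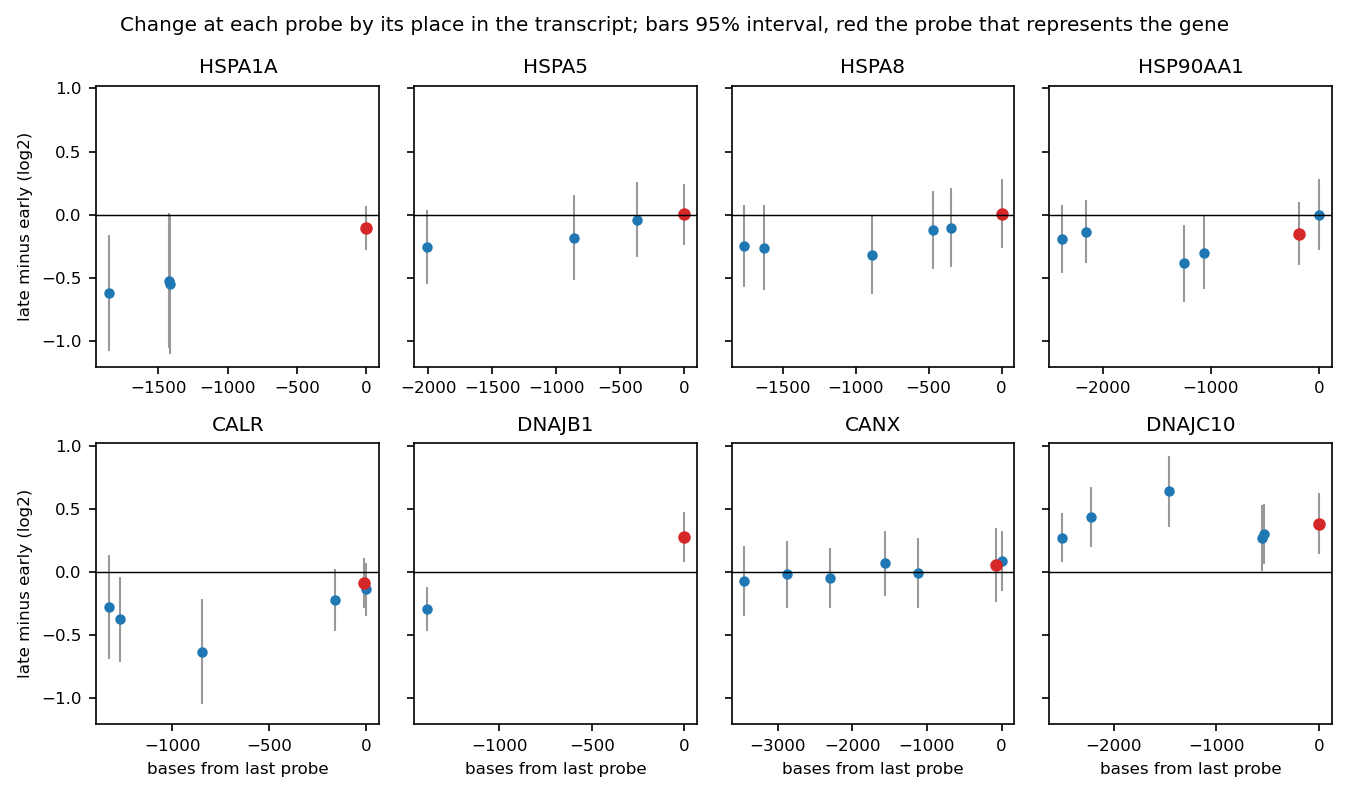
Late minus early change (log2, y axis) with 95% interval at each probe of 8 chaperone genes, by distance in bases from the last probe of the transcript (x axis, 0 at the end side), with the representative probe in red. Start-side probes are lower than end-side ones in HSPA1A, HSPA5, HSPA8 and DNAJB1. CANX stays near 0, from -0.07 at the start side to 0.09 at the end side, and DNAJC10 is above 0 throughout.

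The genes that work with these chaperones were counted as well. Of 41 measured partners in the endoplasmic reticulum, 1 rose and 0 fell (median change 0.01), against 0.541% called higher and 0.772% called lower over all genes. An unadjusted p under 0.05 in limma was reached by 5 higher and 5 lower late, against 12.4% and 10.2% of all genes. The gene that rose was ERP27, a redox-inactive member of the disulfide isomerase family that binds PDIA3: it went from -2.77 ± 0.668 to -1.44 ± 0.665 (SD, n = 10), higher late in 10 of 10 cows by 1.33 (adjusted p 0.0327). ERP27 was not called without cow 3, 6, 8, 9 or 10 and remained called without any of the other 5 cows. Of 37 cytosolic partners 0 were called in limma and 4 had an unadjusted p under 0.05, against 1.31% and 22.5% of all genes. TTC1, an HSP70-binding adaptor, was lower late in 10 of 10 cows, with a change of -0.28 (adjusted p 0.0878), and FKBP5, the HSP90 partner of steroid receptors that progestins and glucocorticoids induce, was 0.79 higher in 9 of 10 cows (adjusted p 0.125). Of 7 mitochondrial partners 0 were called and 1 had an unadjusted p under 0.05, HSCB, the J protein of iron-sulfur cluster assembly, 0.46 higher (adjusted p 0.0805). CLPX, the next by p, had a change of 0.10 (adjusted p 0.411).

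Marker genes of cell types moved between the periods beside these values. Macrophage markers fell in 4 of 10 (median change -0.78), against 0.772% of all genes called lower. Their summed level ranged from 2.28 to 4.09 early and from 1.84 to 3.49 late. Of the T and NK cell markers 1 of 10 fell (median -0.31). Epithelial markers had a median of 0.33 with 8 of 9 above 0, fibroblast markers -0.27 with 10 of 10 below 0, endothelial markers -0.10, plasma cell markers -0.08 and red blood cell markers 0.34, with 0 called in each. Immediate early genes had a median of -0.32 with 14 of 15 below 0 and 0 called. The part of these shifts in the chaperone values was not tested.

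Within a period, levels were set against the day after parturition. No gene of the array passed the adjusted threshold early or late (0% of 19424 genes in each), and 5.65% and 1.37% had an unadjusted p under 0.05. Early, PDIA2 had a slope of 0.58 per 10 days (unadjusted p 0.0154, adjusted 0.827) and HSPA4L 0.48 (unadjusted p 0.0474), and both had their lowest level in cow 4 on day 49. The smallest p of a negative slope early belonged to HSPB6, -0.16 per 10 days, and DNAJC13, an endosomal J protein, -0.08. Late, HSPA1A had a slope of 0.05 (unadjusted p 0.0186, adjusted 1.0), DNAJA4 0.07, DNAJA2 -0.06 and HSPB11 -0.03 per 10 days.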

How the data were processed

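Endometrial RNA of 10 cows in 2 periods was read on 20 1-colour arrays. Per the file headers, Agilent Feature Extraction 10.5.1.1 read the images on a design annotated to HGSC Btau_3.1, and the deposited intensity values are processed signals, mean signals and local backgrounds per spot. The series' own table, also deposited, holds log2 values that matched the scanner values after centring per probe, and it served as an alternative. For levels, the 75th percentile of an array was subtracted from its log2 processed signals, without control or outlier-flagged spots. Probes well above background on at least 8 arrays were kept (33764), and 19424 genes were each represented by their probe of highest mean. Probes were named through a RefSeq table (22205 by accession, 9847 by symbol, 372 by synonym, 1171 by gene number), and 10058 kept the array's name. Probe sequences are those of the array files.

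The difference late minus early was fitted in R 4.3.3 with limma 3.58.1 (lmFit, eBayes), with cow as a block, a two-sided test and Benjamini-Hochberg adjustment over all genes at 0.05. The pairing comes from the titles, animal numbers and design text. The source names of late samples carry other cow numbers, which the labels do not resolve. After removal of the period mean, both arrays of a cow correlated at -0.11 to 0.76 (median 0.42) and above 0.1 in 8 of 10 cows. The members and all lists (partners, cell type markers, immediate early genes) were chosen with earlier results of these data known. Named are, in each compartment, the 4 members of smallest p per direction, 16 textbook members, the 3 largest and 3 smallest SDs, the 2 partners of smallest p per list and the 2 day slopes of smallest p per direction; others were named after their values were seen, among them PDIA2, DNAJC22, the members of the early array of cow 4 and the probe series. Correlations were taken over the 10 cows of a period. Tested on simulated data of 19216 genes, the fit for late against early recovered 36%, 82%, 100% and 100% of 50 genes changed by 0.5, 1, 2 and 3 log2 units, with 12 false calls. The number of arrays limits the precision.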

Additional observations from a re-analysis of the deposited data

Results flagged for a closer look

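Of 87 groups of 10 values checked, 24 held a value whose gap to its nearest neighbour exceeded Dixon's 95% critical share of the group's range, a limit that chance passes in about 1 of 20 groups. The early biopsy of cow 4 accounted for 15 of these values. It was the highest early level for CALR (6.62), DNAJA4 (-1.08), DNAJC10 (2.12), DNAJC15 (1.43), HSP90AA1 (5.92), HSP90B1 (6.06), HSPA5 (6.15), HSPA8 (6.15), HSPB1 (5.82), HSPD1 (4.65), HSPH1 (4.42) and PDIA4 (4.50). It was the lowest early level for HSPA4L (-8.68), HSPB11 (0.66) and PDIA2 (-7.03). The median change of the cytosolic and nuclear members was also lowest in cow 4 (-0.35). Since 1 biopsy gave these values, they are not independent of each other.

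Other cows stood apart in single genes. DNAJB1 was lowest in the early biopsy of cow 3 (0.97), and HSPA6 in that of cow 5 (-6.76). DNAJC1 was highest in the early biopsy of cow 9 (1.90), DNAJC6 in that of cow 2 (-0.39), and DNAJB4 in the late biopsy of cow 9 (0.22). The median change of the endoplasmic reticulum members was highest in cow 10 (0.66). The start-side minus end-side change along transcripts was lowest in cow 9, both over all genes (-0.38) and over the members (-0.43).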

How the results depend on the processing

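All member counts stayed at 0 called except under 2 alternatives, where DNAJC10 made the count 1: cow as a random effect and each probe on its own. Over all genes, 255 were called, and 118 with no replicate block, 726 with cow as a random effect, 115 with no filter, 38 with slide as a random block, 0 with slide as a fixed block (365 at an unadjusted p under 0.05) and 0 within slide 3 (1714), and between 35 (without cow 10) and 153 when 1 cow was left out. Without the replicate block, 0 members were called, as with cow as a fixed block. Endoplasmic reticulum partners called numbered 2 with quantile normalization (ERP27 and SEL1L), 0 with slide as a fixed or a random block, within slide 3 and without cows 4 and 9, and between 0 and 1 without 1 cow. Mitochondrial partners called numbered 1 (HSCB) with cow as a random effect. With slide as a fixed block the median change was 0.29 for cytosolic and nuclear and 0.63 for endoplasmic reticulum members, and the cause was not tested. With quantile normalization, r late passed the threshold for HSPA1A with HSPH1 (-0.714), HSPA5 with HSP90B1 (0.746) and HSPA5 with PDIA4 (0.863). Without 1 cow, r ranged from 0.636 to 0.955 (HSPA5 with HSP90B1, early), 0.650 to 0.975 (HSPA5 with PDIA4, early), 0.456 to 0.792 (HSPA1A with DNAJB1, late), 0.576 to 0.901 (HSPA5 with HSP90B1, late) and 0.497 to 0.804 (HSPA5 with PDIA4, late), and both late relations of HSPA5 passed the threshold without cow 9. Of 41 named members, 14 kept the sign of their change under every alternative run, 32 when any 1 cow was left out, while a fixed slide block turned the sign of 18. The difference along transcripts, an alternative chosen after seeing the data, stayed below 0 with normexp background correction (-0.06), quantile normalization (-0.07) and probes at least 1000 bases apart (-0.14). Dim members (HSPA6, HSPA4L, HSPB9, PDIA2, DNAJC22) were not well above background on all arrays, which limits their values.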
